A study of Mus musculus with 158 samples.

Results

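The genes Fos, Fosb, Fosl1, Fosl2, Jun, Junb, Jund, Jdp2, Batf and Atf3 encode members of the AP-1 family of transcription factors. Their loci were taken as the gene body (mm10 build of the mouse genome, GENCODE annotation) with 20 kb on each side, and they are 10 of the 21755 protein-coding genes with such a window. In each window, DNase I hotspots were counted, their covered length was summed, and their presence at the gene start was recorded. A hotspot is a stretch of chromatin cut by DNase I more often than its surroundings, here as called by the authors at a false discovery rate (FDR) of 5%.

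The adult mice were 8 week old F1 hybrids of C57BL/6J dams and sires of 5 other strains or species, labelled B6x129, B6xC3H, B6xCAST, B6xPWK and B6xSPRET. Whole liver, whole kidney, whole lung and B cells were profiled, the last from femoral marrow after depletion of cells carrying CD43 or CD11b. The 138 adult DNase-seq samples carry 67 sample numbers in their titles, 2 to 6 for each hybrid and tissue, so that many are libraries sharing a number, and tissue was typically pooled from several mice. There are 20 deposited hotspot sets, 1 for each hybrid and tissue, so the 5 hybrids stand as the repeats of a tissue and their spread holds genetic as well as technical differences. B6xCAST embryonic stem cells (mESC) had 2 DNase-seq samples but 1 DNase-seq hotspot set, and it is not stated which samples that set holds. They also had 1 set from chromatin immunoprecipitation of CTCF, and neither set had a repeat. The adult tissues were covered by 17 RNA-seq samples. In whole organs, more cells of a type and more accessible DNA per cell cannot be told apart.

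AP-1 factors bind DNA as pairs of basic leucine zipper (bZIP) proteins. Fos proteins pair with Jun proteins and bind a short palindrome, the AP-1 site, and pairs with ATF partners also bind the related cAMP response element (CRE). Fos, Fosb, Jun, Junb and Atf3 are immediate early genes, transcribed within minutes of a growth factor or stress signal. Serum response factor, bound to a serum response element (SRE) upstream of Fos, is the classical route of that induction.

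The SRE is shown first because, of the member starts searched, those of Fos and Fosb alone held it. It was searched as CC, a run of A or T, then GG, on both strands. Of 12 member starts (11 from RefSeq and that of Fosl1 from GENCODE), 2 held it within 500 bases upstream, against 2.75% of 32851 RefSeq starts. This distance was chosen after a search of 250 bases had found it at none of 11 member promoters (1.47% of all promoters). The RefSeq starts of Jund (70697739), Fosl2 (32136472) and Atf3 (191183333) differed from the GENCODE starts used for the hotspots (70698949, 32135801 and 191218039). The bases just upstream of those GENCODE starts were not part of either search. The letters began at position -309 from the start of Fos and at -272 from that of Fosb. Both lay under a hotspot in all 20 adult sets and in mESC. The sequences are from the RefSeq copy of GRCm38.p6 (mm10), written in the direction of transcription with the SRE in capitals.
Fos, chr12:85473540-85473839, plus strand: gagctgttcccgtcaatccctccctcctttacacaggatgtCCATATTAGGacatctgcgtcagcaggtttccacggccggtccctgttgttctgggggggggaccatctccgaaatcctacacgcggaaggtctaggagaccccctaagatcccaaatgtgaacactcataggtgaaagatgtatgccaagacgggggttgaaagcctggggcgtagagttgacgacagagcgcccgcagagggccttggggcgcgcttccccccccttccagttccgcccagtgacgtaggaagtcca
Fosb, chr7:19310096-19310395, minus strand: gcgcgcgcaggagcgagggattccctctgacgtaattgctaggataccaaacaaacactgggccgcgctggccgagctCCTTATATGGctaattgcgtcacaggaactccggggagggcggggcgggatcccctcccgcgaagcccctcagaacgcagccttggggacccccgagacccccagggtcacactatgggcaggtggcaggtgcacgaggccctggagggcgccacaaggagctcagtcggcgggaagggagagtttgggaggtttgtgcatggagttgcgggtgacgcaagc

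The hotspot sets differed in size. They held 78387 (B6xC3H B cell) to 295565 (B6x129 liver) hotspots over 28.95 to 128.8 Mb, with 78387 to 156078 in B cells and 152006 to 295565 in the organs. Over all genes tested, the median log2 difference in covered length between a tissue and the mean of the other 3 was 0.44 for liver and 0.14 for kidney, while it was -0.13 for lung and -0.49 for B cells. Dividing each value by the total of its set moved these medians to -0.10, -0.07, -0.05 and 0.17. Differences are therefore given as deposited and after division by the set total. Every set of the matching tissue had a hotspot at the starts of 5 of 5 markers for liver, for lung and for B cells, and at 4 of 5 for kidney. Some markers also had one in all 5 sets of another tissue. These were Alb and Cyp2e1 in kidney, and Alb, Cdh16, Pax5 and Ms4a1 in lung, while no lung marker did so. Of 3 mESC markers, 2 had one in mESC, and Esrrb had none there but had one in all 5 kidney sets.

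Most AP-1 loci were more accessible than the typical gene, and 8 of the 10 lay above the upper quartile of all genes. On average over the 20 sets, hotspots covered 32.2% of the window of Junb, 19.6% for Jund, 17.1% for Fos, 15.4% for Fosb, 13.7% for Jun, 13.6% for Fosl1, 11.6% for Fosl2, 10.7% for Atf3, 7.32% for Jdp2 and 4.67% for Batf. The median protein-coding gene had 5.29%, with quartiles at 2.28% and 8.49%. Neighbours in this order overlapped over the sets, for example Jund (11.6% to 34.8%) and Fos (9.51% to 42.3%). Junb ranged from 12.9% to 39.9%. The windows of Junb, Fosl1, Jund, Fosb and Atf3 also held other coding genes (5, 4, 2, 1 and 1), whose hotspots are part of these values, and the other 5 windows held none.

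**Figure D1:**
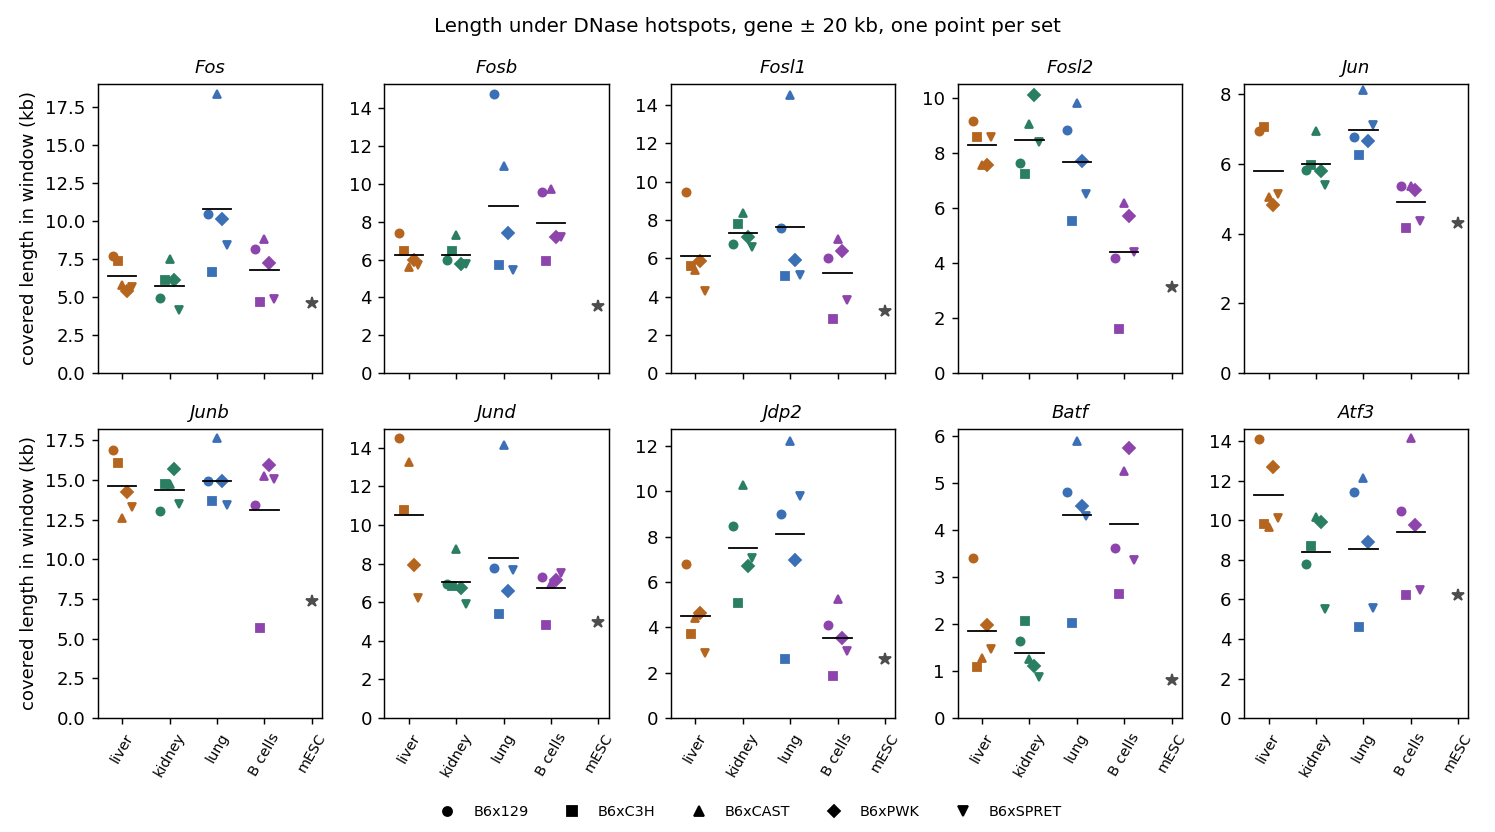
Length of DNA under hotspots in the window of each gene (kb, vertical axis), with 1 point per hybrid (shape), colours for the tissue, a black line for the mean of 5 sets and a star for the single mESC set. Batf had means of 4124 bp in B cells and 4312 bp in lung against 1846 bp in liver and 1390 bp in kidney, and the highest Fos value is 18353 bp in B6xCAST lung.

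At the annotated start (within 250 bp), 8 of the 10 genes had a hotspot in all 20 adult sets, against 44.8% of protein-coding genes. The same 8 had one in mESC, against 61.1% of genes. Batf had it in 5 of 5 lung and 5 of 5 B cell sets, but in 2 of 5 liver and 3 of 5 kidney sets. Where present, the Batf start hotspot was 677 to 2188 bp wide in B cells, 225 to 1135 bp in lung, 216 and 546 bp in liver and 69 to 150 bp in kidney. B cell widths lay above all liver and kidney widths and overlapped those of lung. Atf3 had no hotspot at its far 5′ end (chromosome 1, position 191218039), whereas the starts of both other transcripts, at 191183340 and 191183108, had one in 20 of 20 sets. With any annotated transcript counted, 50.4% of genes had a hotspot in every set, and Batf was the only member without.

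Fos (chr12:85473890-85477273, plus strand), the founding member of its branch, had its most accessible locus in lung. Covered length was 10454, 6684, 18353, 10116 and 8439 bp in B6x129, B6xC3H, B6xCAST, B6xPWK and B6xSPRET lung, the order of hybrids used throughout. It was 4707 to 8811 bp in B cells, 4127 to 7485 bp in kidney and 5394 to 7736 bp in liver. Lung was high in B6x129, B6xCAST and B6xPWK, whereas B6xC3H and B6xSPRET lay within the range of the other tissues. The log2 difference of lung from the mean of the others was 0.72 ± 0.16 (SE, 5 sets per tissue; limma, adjusted p = 0.0018), and 0.81 after division by the set total. Over the gene body alone it was 0.53 (limma, adjusted p = 0.062). Hotspot number separated the tissues fully, with 19 to 27 in lung and 9 to 18 elsewhere (log2 difference 0.88 ± 0.13, limma, adjusted p = 2.5e-05).

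The additional Fos hotspots in lung lay on both sides of the gene. A merged region is the union of overlapping hotspots over the 20 sets, and it was seen in a tissue if at least 1 set of it had a hotspot there. Of 15 merged regions upstream, 11 were seen in lung, 5 in kidney, 5 in B cells and 3 in liver. Those in all 5 sets of a tissue numbered 3 in lung and 1 each in kidney, B cells and liver. Over the whole window, 11 of 30 Fos regions were in a single set. The region chr12:85459897-85460196, at -13694 bp from the start, was in 5 lung and 2 kidney sets and in no other. The region chr12:85468561-85469092, at -4798 bp, was in every liver, lung and B cell set and in no kidney set. A region at the 3′ end, chr12:85477241-85480203, was in 5 lung sets and in no other set, but its width rests on B6xCAST, with 2963 bp there and 239 to 1083 bp in the other lung sets. Downstream, 3 regions at 11494, 18122 and 22829 bp were in all 20 sets, in mESC and in the CTCF set.

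Fosb (chr7:19302696-19310051, minus strand), a close relative of Fos, had upstream elements found in lung and B cells. The region chr7:19321304-19322288, at -11253 bp, was in 5 lung sets, 5 B cell sets and 1 liver set. Those at -8544 bp (chr7:19318595-19319098) and -15689 bp (chr7:19325740-19326285) were in 5 B cell and 2 lung sets only. Kidney instead had a region at -1904 bp (chr7:19311955-19312456) in 5 sets, shared with 1 liver set. Over the whole window Fosb covered 5925 to 9707 bp in B cells, 5438 to 14738 bp in lung, 5742 to 7293 bp in kidney and 5603 to 7427 bp in liver. These overlapped, and no tissue passed the test as deposited. After division by the set total the difference was 0.95 in B cells (adjusted p = 6.2e-07), 0.38 in lung (adjusted p = 0.012), -0.47 in kidney (adjusted p = 0.0023) and -0.85 in liver (adjusted p = 3.9e-06), all by limma.

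Fosl1 (chr19:5447547-5455946, plus strand) and Fosl2 (chr5:32135801-32157842, plus strand) encode the Fos-related antigens, which lack the strong activation domain of Fos. Fosl1 carried 2 regions seen in every kidney set and in no other set, at -2240 bp (chr19:5444970-5445307, 238 to 338 bp wide) and at 11400 bp (chr19:5458947-5459338, 283 to 389 bp wide). The second is shown in the direction of the gene, because it was the only one of the 8 single-tissue regions described here that held an AP-1 site (TGANTCA on either strand, in capitals).
Fosl1 kidney region, chr19:5459003-5459302, plus strand: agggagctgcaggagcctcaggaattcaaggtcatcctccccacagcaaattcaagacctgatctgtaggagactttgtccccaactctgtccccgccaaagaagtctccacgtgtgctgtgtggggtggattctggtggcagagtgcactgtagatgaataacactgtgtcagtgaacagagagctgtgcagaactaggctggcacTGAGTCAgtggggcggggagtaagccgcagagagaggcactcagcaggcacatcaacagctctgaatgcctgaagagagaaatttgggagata

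Over its whole window Fosl1 covered 2813 to 7013 bp in B cells, 5092 to 14540 bp in lung, 6579 to 8384 bp in kidney and 4285 to 9454 bp in liver. The B cell difference was -0.44 ± 0.18 (limma, adjusted p = 0.038). It was 0.31 after division by the set total and 0.61 over the gene body alone, so that its sign depended on both choices. Without B6x129, B6xC3H or B6xSPRET it was -0.46, -0.28 and -0.44 and no longer passed.

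Fosl2 had its lowest mean covered length in B cells, at 7.12% of the window. It covered 4181, 1604, 6200, 5705 and 4406 bp in B cells, 5520 to 9810 bp in lung, 7257 to 10102 bp in kidney and 7554 to 9171 bp in liver. All B cell sets lay below all liver and kidney sets and overlapped the low end of lung. The B cell difference was -0.98 ± 0.17 (limma, adjusted p = 3.7e-05), where the median of all genes was -0.49. After division by the set total the difference was -0.23 (limma, adjusted p = 0.058), where that median was 0.17. Of 9 regions inside the gene, 5 were seen in lung, 4 in liver, 4 in kidney and 1 in B cells. Those in all 5 sets of a tissue numbered 3 in kidney, 1 in lung, 1 in liver and 0 in B cells. The region at 19003 bp (chr5:32154804-32155984) was in 5 liver, 5 kidney and 3 lung sets, and that at 7575 bp (chr5:32143376-32143924) was in every kidney and lung set. Neither was in any B cell set.

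Jun (chr4:95049034-95052222, minus strand), Junb (chr8:84974484-84978718, minus strand) and Jund (chr8:70698949-70700616, plus strand) encode the partners of the Fos proteins. At Jun, the region at -10529 bp (chr4:95062751-95063288) was in all liver and kidney sets, 1 lung set and no B cell set, and that at -16159 bp (chr4:95068381-95068986) was in 5 kidney sets and 1 lung set. The region at -5078 bp was in 4 lung sets and 1 kidney set. It is shown in the direction of Jun because it is 1 of 2 among 279 member regions that held the CRE (TGACGTCA, in capitals). The other lay downstream of Fosb.
Jun upstream region, chr4:95057318-95057617, minus strand: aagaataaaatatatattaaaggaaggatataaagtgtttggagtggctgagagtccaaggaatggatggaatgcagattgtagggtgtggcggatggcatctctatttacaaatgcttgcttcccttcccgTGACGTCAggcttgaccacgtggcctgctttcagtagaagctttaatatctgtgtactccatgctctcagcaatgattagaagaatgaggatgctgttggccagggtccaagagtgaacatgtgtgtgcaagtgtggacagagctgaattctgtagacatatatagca

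Jun covered 4171 to 5375 bp in B cells, 6268 to 8110 bp in lung, 5407 to 6959 bp in kidney and 4816 to 7075 bp in liver. B cells lay below every kidney and lung set. The difference was 0.33 ± 0.13 in lung (limma, adjusted p = 0.049) and -0.34 ± 0.13 in B cells (limma, adjusted p = 0.025), and 0.42 in both after division by the set total. The lung call was lost without B6x129, B6xCAST, B6xPWK or B6xSPRET (0.29 to 0.37), and the B cell call without B6x129, B6xC3H or B6xSPRET (-0.36 to -0.27). The antisense gene Junos lies in the same window.

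Junb, which can restrain Jun, did not pass in any tissue as deposited, but after division by the set total it was at -0.54 in liver (limma, adjusted p = 0.00048) and 0.52 in B cells (limma, adjusted p = 0.0005). Its means were 14929 bp in lung, 14358 bp in kidney, 14631 bp in liver and 13085 bp in B cells, where B6xC3H had 5698 bp and the other sets 13452 to 15912 bp. Jund covered 4825 to 7494 bp in B cells, 5375 to 14129 bp in lung, 5881 to 8756 bp in kidney and 6197 to 14493 bp in liver. Its liver difference was 0.49 ± 0.16 (limma, adjusted p = 0.014), equal to 0.04 above the median of all genes, and -0.13 after division by the set total. It was 0.36 without B6x129 and 0.37 without B6xC3H, and passed in neither. Jund had 5 to 9 hotspots in B cells and 11 to 24 elsewhere, with no overlap (log2 difference -1.02 ± 0.14, limma, adjusted p = 8.3e-07). After division by the set total this was -0.14 (limma, adjusted p = 0.43). The fewer Jund hotspots in B cells included a wide one at the start, with a median of 3207 bp (3052 to 3808 bp). Medians were 1341 bp in liver (1231 to 6675), 1323 bp in kidney (1182 to 2981) and 1605 bp in lung (1245 to 4476).

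Batf (chr12:85686669-85709087, plus strand), best known from lymphocytes, differed in all 4 tissues. It covered 3624, 2631, 5264, 5743 and 3358 bp in B cells and 4820, 2030, 5903, 4518 and 4291 bp in lung. It covered 3405, 1089, 1270, 1992 and 1473 bp in liver and 1639, 2070, 1257, 1108 and 876 bp in kidney. All B cell sets exceeded all kidney sets, while B6x129 liver and B6xC3H lung crossed between the high and the low tissues. The log2 differences were 0.93 ± 0.23 in lung (adjusted p = 0.0037), 0.88 ± 0.23 in B cells (adjusted p = 0.0023), -0.69 ± 0.23 in liver (adjusted p = 0.015) and -1.12 ± 0.23 in kidney (adjusted p = 0.00056), all by limma. After division by the set total they were 1.01, 1.62, -1.28 and -1.36. With a flank of 50 kb, which reaches into Jdp2, they were 0.25, -0.40, 0.17 and -0.03. The liver difference was -0.52 without B6xCAST and no longer passed.

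Lung had 2 regions just upstream of Batf that were in all 5 lung sets and in no other set. The region chr12:85684307-85685311, at -1358 bp, covered 883, 829, 1005, 918 and 916 bp, and chr12:85685636-85685910, at -759 bp, covered 240, 75, 270, 192 and 250 bp. Their highest −log10 FDR in a set was 13.9 to 69.4 for the first and 1.55 to 9.79 for the second, which was thus the less certain of the pair. They are shown as the upstream lung regions nearest to a member start, and neither window held the AP-1 site, the CRE or the SRE, so no letters are in capitals.
Batf lung region at -1358 bp, chr12:85684678-85684977, plus strand: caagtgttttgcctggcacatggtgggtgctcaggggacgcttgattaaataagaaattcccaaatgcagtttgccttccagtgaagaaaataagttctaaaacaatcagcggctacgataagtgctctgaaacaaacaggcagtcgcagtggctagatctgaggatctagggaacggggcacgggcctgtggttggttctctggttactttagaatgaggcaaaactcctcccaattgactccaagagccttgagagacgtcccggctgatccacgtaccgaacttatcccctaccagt
Batf lung region at -759 bp, chr12:85685626-85685925, plus strand: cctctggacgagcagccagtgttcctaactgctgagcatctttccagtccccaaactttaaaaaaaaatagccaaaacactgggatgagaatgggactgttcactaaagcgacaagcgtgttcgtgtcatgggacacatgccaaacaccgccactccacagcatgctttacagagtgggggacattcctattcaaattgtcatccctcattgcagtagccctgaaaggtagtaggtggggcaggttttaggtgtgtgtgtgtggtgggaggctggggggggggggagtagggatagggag

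Inside Batf, the region at 13964 bp (chr12:85700633-85701437) was in 5 lung, 3 liver and 1 kidney set and in no B cell set. The region at 16867 bp (chr12:85703536-85704076) was in 5 lung and 3 B cell sets. That at 17951 bp (chr12:85704620-85706192) was in all 20 sets, in mESC and in the CTCF set. Markers of other cells were open in lung. All 5 B cell markers had a start hotspot in 4 or 5 lung sets, 4 of 5 myeloid markers (Adgre1, Cd68, Itgam and Lyz2) had one in all 5, with Csf1r in none, and 4 of 4 endothelial markers had one in all 5. The T cell markers Cd2, Cd3g and Cd3e had one in 5, 4 and 3 lung sets, and the fibroblast markers Col1a1, Pdgfrb and Col1a2 in 5, 5 and 1. In liver, where Batf was low, 3 of 5 myeloid markers (Adgre1, Cd68 and Lyz2), 2 of 4 endothelial and 0 of 3 fibroblast markers had one in all 5 sets. In kidney, where Batf was lowest, 0 of 5 myeloid, 3 of 4 endothelial and 2 of 3 fibroblast markers did. The part of such cells in the lung values of Fos and Batf was not tested, and the 2 upstream Batf regions were in 0 of 5 B cell sets. In B cells, Itgam, which encodes CD11b, and Cd68 had a start hotspot in all 5 sets. So did the T cell marker Cd2 and the endothelial markers Pecam1 and Kdr, the last of which had one in all 5 sets of every tissue. The other markers of these lists had one in fewer B cell sets. Adgre1 had it in 3, Pdgfrb in 2, Lyz2 and Cd3g in 1, and Csf1r, Cd3e, Cdh5, Tek, Col1a1 and Col1a2 in 0.

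Jdp2 (chr12:85599027-85639878, plus strand) encodes a partner that represses AP-1 activity. It covered 8462, 5098, 10279, 6721 and 7042 bp in kidney and 8987, 2597, 12241, 6952 and 9795 bp in lung. It covered 6802, 3729, 4431, 4617 and 2888 bp in liver and 4119, 1862, 5264, 3525 and 2965 bp in B cells. Kidney and lung were mostly high, with B6xC3H lung at the level of B cells, and B6x129 liver overlapped the lower kidney sets. The difference was -0.85 ± 0.18 in B cells (adjusted p = 0.00029), 0.60 ± 0.18 in lung (adjusted p = 0.014) and 0.62 ± 0.18 in kidney (adjusted p = 0.0094), by limma. After division by the set total these were -0.10, 0.69 and 0.39 (limma, adjusted p = 0.50, 0.00026 and 0.016). In liver the difference was -0.37 as deposited (limma, adjusted p = 0.083) and -0.98 after division (limma, adjusted p = 2.6e-06). The lung call was lost without B6xCAST, B6xPWK or B6xSPRET (0.42 to 0.62).

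The Jdp2 gene body held 23 merged regions, of which 17 were seen in kidney, 15 in lung, 9 in liver and 5 in B cells. In all 5 sets of a tissue there were 6 in kidney, 4 in lung, 3 in liver and 0 in B cells. The regions at 24529 bp (chr12:85623556-85624120) and 32112 bp (chr12:85631139-85631559) were in every kidney and lung set and in no other. The region at 39815 bp (chr12:85638842-85640009) was in every set of the 3 organs and in no B cell set.

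**Figure D2:**
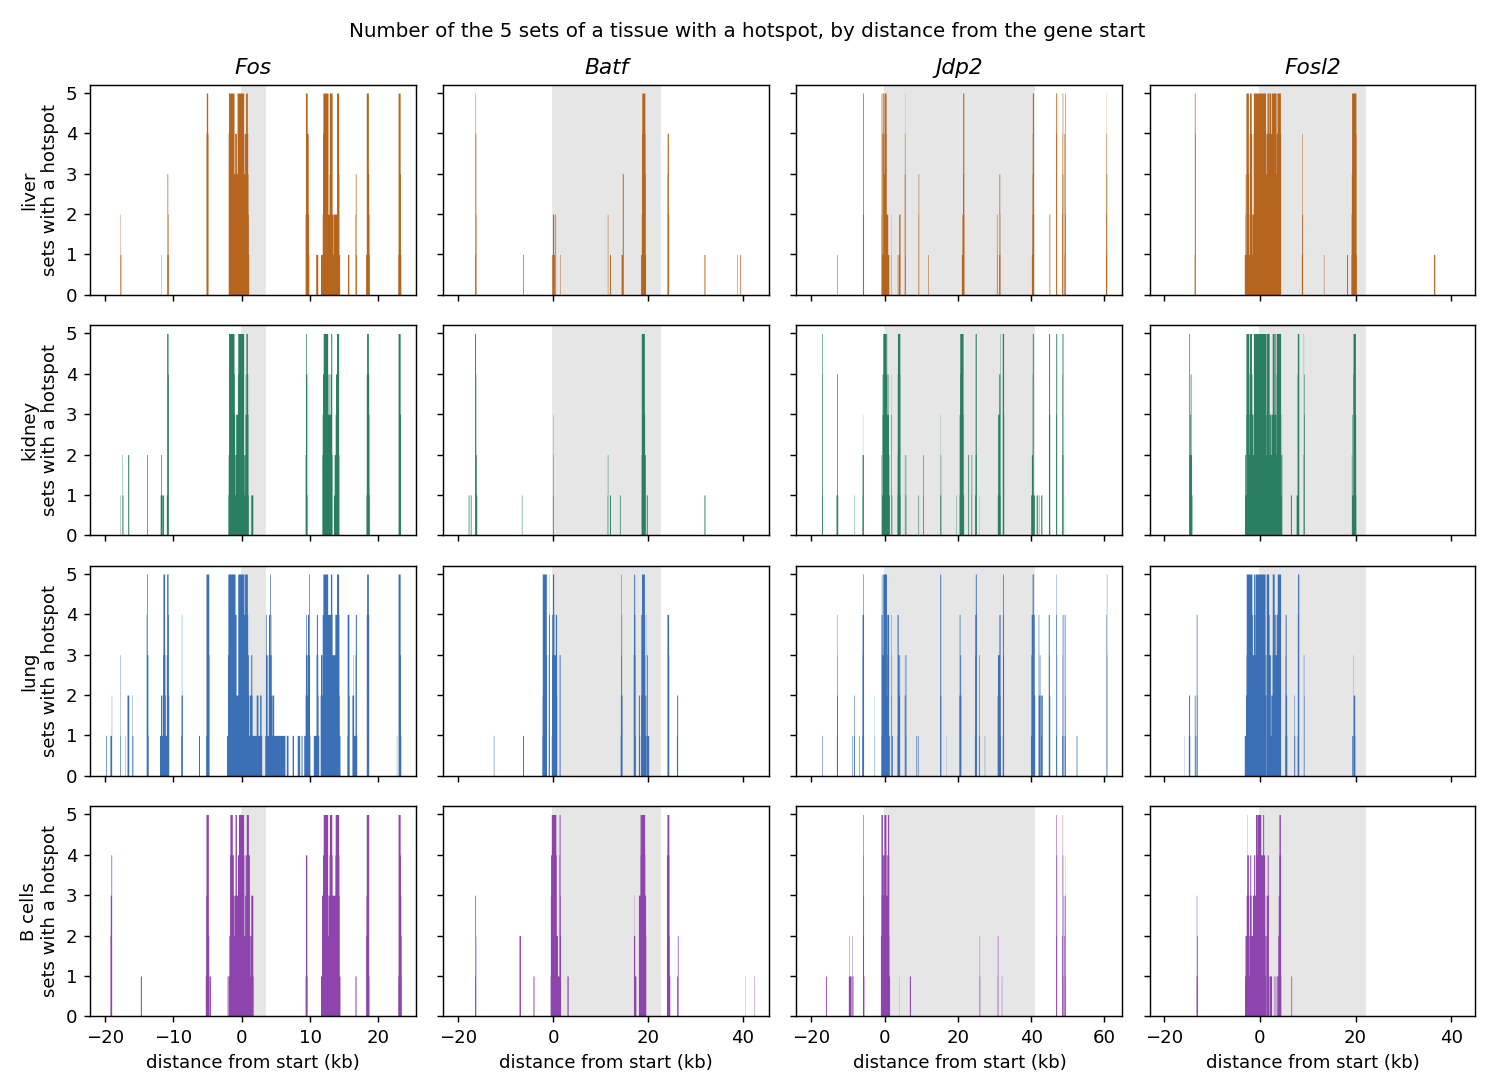
Number of the 5 sets of a tissue with a hotspot (vertical axis) by distance from the gene start (kb, horizontal axis) for Fos, Batf, Jdp2 and Fosl2. Kidney and lung have peaks along Jdp2 where B cells have few, and Batf has a lung peak just upstream of its start that reaches 5 sets. Grey marks the gene body.

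Atf3 (chr1:191170296-191218039, minus strand) encodes a stress-induced factor that can repress its targets. It covered 6225 to 14154 bp in B cells, 4584 to 12122 bp in lung, 5500 to 10149 bp in kidney and 9640 to 14088 bp in liver. The liver difference was 0.41 ± 0.16 (limma, adjusted p = 0.034), -0.04 relative to the median of all genes and -0.21 after division by the set total. It did not pass without B6x129, B6xC3H, B6xPWK or B6xSPRET (0.31 to 0.41). Atf3 had 2 regions found in every liver set and in no other set. The first (chr1:191170416-191171214, overlapping an Atf3 exon) covered 707 to 786 bp, and the second, at -18175 bp (chr1:191236214-191236701), covered 248 to 437 bp. A region at 21747 bp (chr1:191196024-191196292, 85 to 269 bp) was seen in every kidney set alone, and that at -8478 bp (chr1:191226517-191227306) in 5 kidney, 5 B cell and 1 lung set. These distances are counted from the far 5′ end of Atf3, which had no hotspot. The regions at 21747, -8478 and -18175 bp all lie upstream of the starts at 191183340 and 191183108 that had one.

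In covered length, 2 members were higher and 1 lower in liver, where 49.6% of all genes tested were higher and 5.61% lower. In kidney 1 was higher and 1 lower, against 25.3% and 7.85%. In lung 4 were higher and 0 lower, against 12% and 20.3%. In B cells 1 was higher and 4 lower, against 7.06% and 53.2%. The median member was at -0.27 in B cells, 0.26 in lung, -0.06 in kidney and -0.07 in liver. After division by the set total the counts were 8 higher and 0 lower in B cells, 7 and 0 in lung, 1 and 5 in kidney, and 0 and 7 in liver, with medians of 0.49, 0.35, -0.30 and -0.68. The shares of all genes on that scale were 43.9% higher and 27.5% lower in B cells, 21.4% and 25.3% in lung, 22.9% and 28.8% in kidney, and 25.6% and 35.7% in liver. The members called were all but Fosl2 and Jdp2 in B cells (0.31 to 1.62), all but Junb, Jund and Atf3 in lung (0.29 to 1.01), and all but Fosl2, Jund and Atf3 in liver (-1.28 to -0.54). In kidney Jdp2 was higher (0.39), and Fos, Fosb, Jund, Batf and Atf3 were lower (-1.36 to -0.40). The lung calls were upward on both scales, whereas the split turned in liver and B cells.

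**Figure D3:**
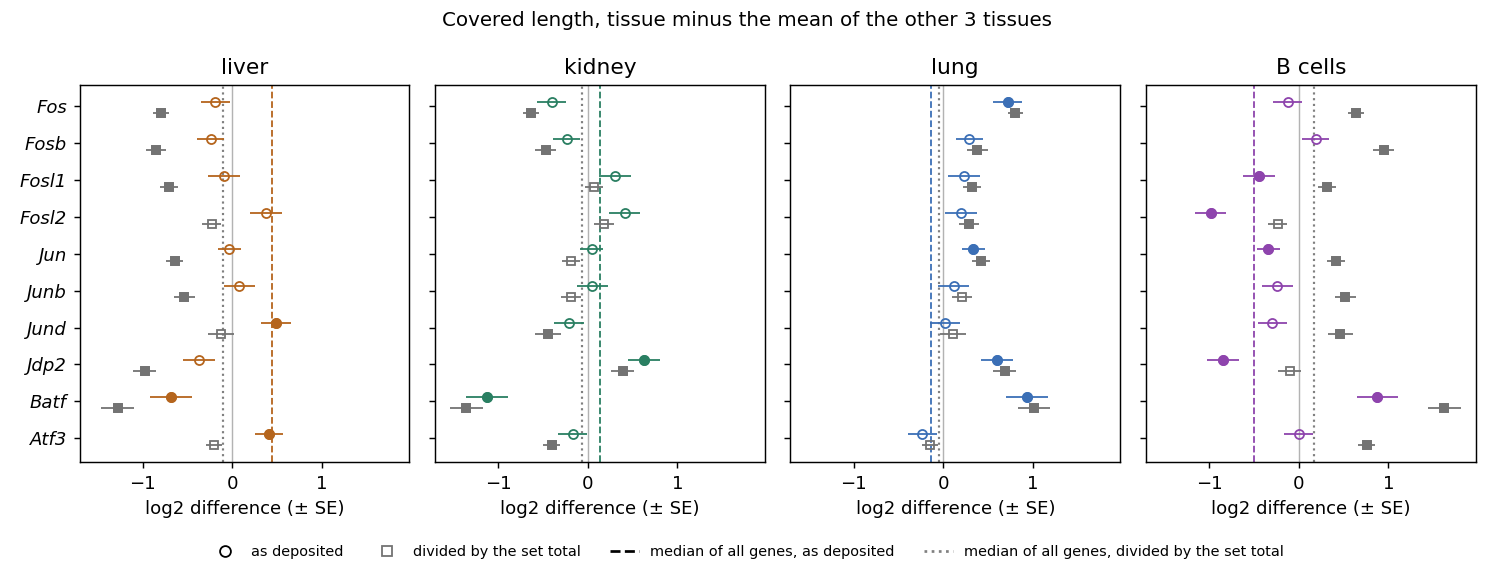
Difference in log2 covered length between a tissue and the mean of the other 3 (horizontal axis, ± SE) for the 10 genes, as deposited (circles) and after division by the set total (grey squares), filled where the limma adjusted p was below 0.05, with the median of all genes as a dashed (deposited) and a dotted (divided) line. Batf reads 0.93 in lung and 0.88 in B cells, and Fosl2 reads -0.98 in B cells as deposited and -0.23 after division.

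In hotspot number, Jund was higher in liver (0.55) and no member lower, against 45.2% and 4.52% of genes. In kidney Jun (0.48) and Jdp2 (0.56) were higher and Batf (-0.72) lower, against 28.9% and 7.35%. In lung Fos, Fosb, Fosl1, Jun, Jdp2 and Batf were higher (0.35 to 0.88) and none lower, against 20.7% and 8.79%. In B cells Fos, Fosl1, Fosl2, Jun, Jund and Jdp2 were lower (-1.06 to -0.33) and none higher, against 65.5% and 3.03%. Without B6xCAST, 3 members were higher in lung, as were 3262 of 21194 genes. With division by the set total, 7 members were higher and 0 lower in B cells (35.9% and 22.3% of genes), 3 and 1 in lung (13.5% and 18.4%), 0 and 3 in kidney (16% and 20.2%), and 0 and 8 in liver (20% and 22%), so that the direction in B cells and liver turned. With the 75000 highest-scoring hotspots of each set, 5 were higher and 1 lower in B cells, as were 6386 and 5265 of 19189 genes.

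Between hybrids, 0 of 10 members passed the moderated F test in covered length (limma), as did 0.698% of all genes. The lowest adjusted p-values were 0.052 for Jdp2, 0.067 for Atf3 and 0.094 for Fosl1. At an unadjusted p below 0.05, 6 members passed (Jdp2, Atf3, Fosl1, Fos, Jund and Fosb), as did 38.6% of all genes. With a flank of 50 kb, 4 members passed the adjusted test, as did 15% of genes. In B cells, B6xC3H had the lowest covered length of the 5 hybrids at all 10 loci, and it was also the smallest B cell set.

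The windows held 279 merged regions. Of these, 36 (12.9%) were in all 20 sets, against 5.05% of 486188 regions near protein-coding genes, and 46.6% were seen in a single tissue, against 60.1%. The 36 comprised 8 at the annotated start of a member, 1 over the starts of the shorter Atf3 transcripts, 6 at the start of a coding neighbour and 21 elsewhere, of which 16 overlapped a CTCF hotspot of mESC. Of the 36, 34 had an mESC DNase hotspot. Over all member regions 17.6% overlapped an mESC DNase hotspot (11.4% near all genes) and 39 of 279 a CTCF hotspot (9.23% near all genes).

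**Figure D4:**
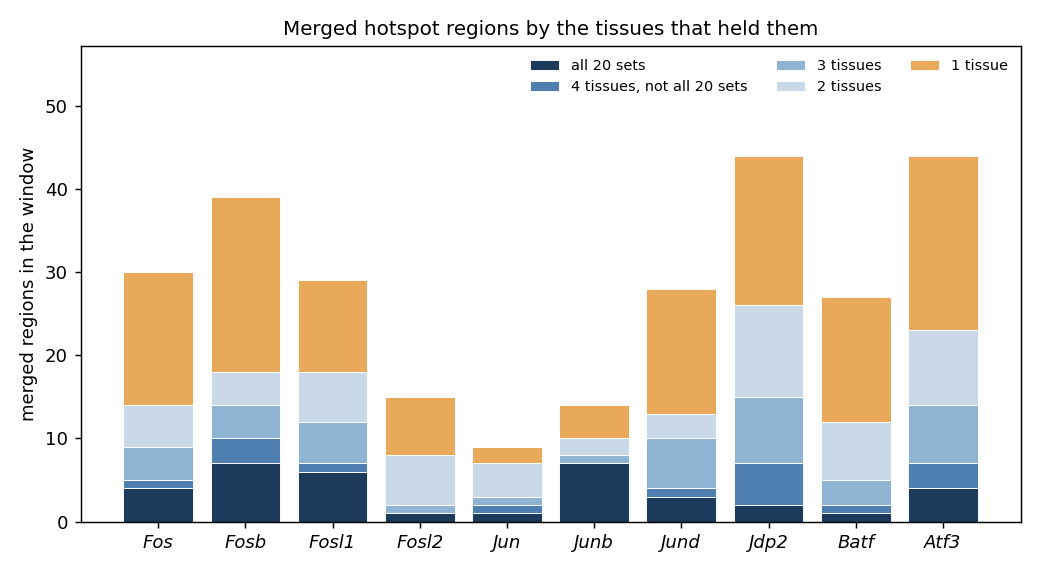
Merged hotspot regions in the window of each gene (count, vertical axis), split by the number of tissues they were found in. Junb and Fosb each had 7 regions in all 20 sets, and Fosl2, Jun and Batf had 1 each.

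Regions in all 5 sets of a tissue and in no other set numbered 2 in liver (3.46% of regions near all genes were of this kind), 3 in lung (1.59%), 3 in kidney (2.03%) and 0 in B cells (0.388%). At an FDR of 1%, 1 lung region was left, at Batf. In windows of 300 bases at the highest-scoring hotspot, 35 of 279 regions (12.5%) held an AP-1 site, against 10.9% near all genes. The CRE was in 3 windows (1.08% against 0.356%), which held 2 distinct sites because 1 site fell in overlapping windows. The SRE was in 8 windows (2.87% against 1.51%), with 7 distinct sites. Only the exact letters TGANTCA and TGACGTCA were counted as an AP-1 site and a CRE. Variants, such as TGACATCA in the Jun promoter, were not counted. In the RefSeq promoters of 250 bases, 0 of 11 at the 9 matched members held these exact letters, against 6.75% (AP-1 site) and 1.55% (CRE) of all promoters. Within 500 bases, 1 of 12 starts held an AP-1 site, against 12.8%, and none a CRE, against 1.93%. It was that of Fos, with TGAATCA at position -462, under a hotspot in all 20 adult sets and not in mESC.

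In mESC the covered length was below the mean of every adult tissue at all 10 loci, from 807 bp in 1 hotspot at Batf to 7378 bp in 14 hotspots at Junb. The mESC set held 115267 hotspots over 42.4 Mb, against 84.7, 84.0, 97.0 and 68.7 Mb in B6xCAST liver, kidney, lung and B cells. Of the adult sets, B6xC3H and B6xSPRET B cells covered less than mESC (28.95 and 35.5 Mb). The mESC values were not divided by the set total, and the share of all genes with the same order was not computed. The part of set size in these values was therefore not tested. CTCF hotspots numbered 2 at Fosl2 to 9 at Atf3.

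RNA-seq counts were too low to describe most members. The libraries held 283725 to 809337 expected counts, and only Fosl1, Junb and Jund passed the filter on low counts. Fos had 1 to 5 counts in the 4 lung samples and 0 in all others, Jun had 8 to 13 in lung and 0 to 3 elsewhere, and Atf3 had 0 throughout. Actb, which is abundant in every tissue, had only 1 to 99 counts, so the counts are not read as transcript levels, and whether they come from the sense strand is not known.

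With that limit, Junb was higher in B cells (13 to 28 counts against 0 to 8; log2 difference 1.99, edgeR adjusted p = 8.0e-05), as was Jund (40 to 123 against 3 to 42; 1.28, edgeR adjusted p = 6.6e-05), where 32.8% of genes tested were higher. Jund (-1.34, edgeR adjusted p = 0.0038) and Fosl1 (-1.14, edgeR adjusted p = 0.048) were lower in liver, as were 21.5% of genes. Junb was lower in kidney (-2.94, edgeR adjusted p = 0.00058), as were 9.31%. Fosl1 was higher in lung (22 to 49 counts against 1 to 19; 1.34, edgeR adjusted p = 0.0011), as were 29.6%.

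Genes of the pathway outside the family were read in 3 lists of 12. Of the related bZIP factors, 8 were higher in liver, 1 was higher in kidney, 2 were lower in lung and 7 were lower in B cells, with none in the other direction, and the shares of all genes in covered length given above apply to each of these lists (49.6% higher in liver and 53.2% lower in B cells). Mafg, a small Maf protein, was at 1.36 in liver and -0.96 in lung. Of the immediate early genes, 1 was higher in liver (Egr1, 0.47), 1 lower in kidney (Egr3, -0.82), 4 higher in lung, and 2 higher and 2 lower in B cells. In lung these included Btg2 (0.68), an antiproliferative gene, and Dusp1 (0.66), a phosphatase that inactivates MAP kinases. Egr3, a zinc finger factor of lymphocyte activation, was at 1.26 in B cells. Of the upstream kinases and factors, 0 were higher and 5 lower in B cells, 0 and 1 in lung, 1 and 1 in kidney, and 7 and 1 in liver. Mapk14, which encodes p38, was at 1.22 in liver and -1.04 in B cells. Values are log2 differences in covered length by limma. After division by the set total, 7 bZIP factors, 10 immediate early genes and 9 upstream genes were higher in B cells, where 43.9% of all genes were. In the same order of lists, 1, 0 and 0 were lower there (27.5%). In liver 3, 0 and 2 were higher (25.6%) and 4, 11 and 5 lower (35.7%). In kidney 1, 0 and 1 were higher (22.9%) and 7, 9 and 7 lower (28.8%). In lung 1, 5 and 2 were higher (21.4%) and 2, 1 and 1 lower (25.3%). Egr1 in liver was then at -0.14 (limma, adjusted p = 0.38).

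Across the 20 sets the loci varied partly together. Pearson's r of log2 covered length over 45 pairs had a median of 0.49, from -0.23 (Fosl2 and Batf) to 0.81 (Fosl2 and Junb). All loci share the size of the set, with which r was 0.85 for Fosl2, 0.33 for Fos and -0.20 for Batf. Outside the windows, the genes most like Batf were Ly86 (r = 0.94) and Ift80 (0.93), those most like Fos were Phlda3 (0.91) and Sgsm3 (0.90), and those most like Fosl2 were Chn1 (0.96) and Igsf21 (0.95). For the other members the 2 most similar genes reached 0.89 to 0.95.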

How the data were processed

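DNase-seq reads had been trimmed with Trimmomatic, mapped with BWA and turned into hotspots with hotspot2 by the authors, who deposited 1 file of hotspots at an FDR of 5% for each hybrid and tissue. Per the deposited files each hotspot has a score and a −log10 value of its FDR, and both come from pooled reads whose depth is not held in those files. The expected counts and TPM of the RNA-seq samples were made by the authors with STAR and RSEM. Expected counts were rounded for the test.

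Covered length and number in the gene windows were taken as log2(bp + 100) and log2(number + 1) and fitted with limma (3.58.1, trend) over 21194 of 21755 protein-coding genes (a hotspot in at least 5 of 20 sets), with tissue and hybrid as terms and Benjamini-Hochberg adjustment over all genes. Each tissue was compared with the mean of the other 3, and hybrids by a moderated F test. RNA was tested with edgeR (4.0.16, quasi-likelihood) over 4479 of 53715 genes, without a hybrid term, with DESeq2 (1.42.0) as an alternative. All tests were two-sided and the threshold was an adjusted p of 0.05. Each fit was tested on simulated data. Each hotspot set was 1 value in the fit. The p-values for hotspots rest on the spread left between sets after the tissue and hybrid terms. Those for RNA rest on the spread between samples of a tissue. Alternatives were FDR 1%, the 75000 highest-scoring hotspots of each set, other flanks (gene body, 5 kb, 50 kb), division by the set total, no filter, no hybrid term, other pseudocounts and leaving out each hybrid. The named genes were the 10 members, per list and tissue the 2 passing genes with the largest difference, and per member the 2 genes of most similar pattern. One gene that this rule names is not reported here. The members and lists were chosen with earlier results of these data known.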

Additional observations from a re-analysis of the deposited data

Results flagged for a closer look

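In 7 of 80 groups of 5 sets, 1 set lay far from the other 4 (a gap above 0.71 of the range), and chance alone gives about 1 in 20 groups. In covered length, B6xCAST lung was high at Fosl1 (14540 bp, others 5092 to 7565) and at Jund (14129 bp, others 5375 to 7774). B6xC3H B cells were low at Junb (5698 bp, others 13452 to 15912) and at Jund (4825 bp, others 6952 to 7494). B6xCAST lung was the largest lung set (281978 hotspots) and B6xC3H B cell the smallest of all (78387 hotspots), and the part of set size in these values was not tested. In hotspot number, B6x129 B cells were low at Fos (10, others 12), B6x129 liver was high at Fosb (18, others 13 to 14) and B6xSPRET lung was high at Junb (20, others 15 to 16).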

How the results depend on the processing

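Counts of members that passed are given first. In covered length, division by the set total gave 7, 6, 7 and 8 in liver, kidney, lung and B cells in place of 3, 2, 4 and 5. With the 75000 highest-scoring hotspots, 0 members were higher and 4 lower in liver, as were 7562 and 3187 of 19189 genes. In B cells 3 were higher and 1 lower, as were 3910 and 5680 genes. Kidney had 0 and 2 (3744 and 2858 genes), and lung had 3 and 0 (2249 and 5900 genes). The gene body alone gave 1, 4 and 2 in liver, kidney and lung, a flank of 5 kb gave 3 in B cells, a flank of 50 kb gave 1 in kidney, and no hybrid term gave 1 in kidney and 2 in lung. Leaving out each hybrid gave 1 to 3, 2 to 3, 2 to 4 and 3 to 5. Between hybrids, 50 kb gave 4, a pseudocount of 1000 bp gave 1 and leaving out a hybrid 0 to 1. In number, liver (1, higher) gave 2 at FDR 1%, 3 at 50 kb and 1 to 2 without a hybrid. Liver gave 6 with the 75000 highest-scoring hotspots and 8 after division, all lower, as were 6221 of 19189 and 4653 of 21194 genes. Lung (6) gave 2 in the gene body, 3 at 5 kb and 3 to 5 without a hybrid, B cells (6) gave 3, 2 and 5 to 6, and kidney (3) gave 1 to 2 without a hybrid. Regions of a single tissue gave 2 to 4 in liver, 3 to 5 in kidney and 3 to 5 in lung without a hybrid, 1 in lung at FDR 1%, and 2 in B cells, both at Fosb, with the 75000 hotspots. RNA gave 1 in liver with DESeq2, 5 in lung without the filter, 3 in lung with limma on TPM, and 1 to 2, 0 to 1, 1 to 1 and 1 to 3 in liver, kidney, lung and B cells without a sample. The cause of these changes was not tested.

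Signs turned as follows (log2). In covered length after division these were Atf3 (-0.21) and Jund (-0.13) in liver and Jun (0.42) and Fosl1 (0.31) in B cells. In the gene body they were Jund in liver (-0.10) and Fosl1 in B cells (0.61), at 5 kb Jund in liver (-0.16), at 50 kb Batf in liver (0.17) and B cells (-0.40), and with the 75000 hotspots Jdp2 in B cells (0.23). In number with the 75000 hotspots they were Jund in liver (-0.016), Jdp2 in kidney (-0.18), and Jun (0.11), Fosl2 (0.019), Fos (0.49), Jdp2 (0.50) and Fosl1 (0.26) in B cells. In the gene body they were Jun in kidney (-0.25) and Jun (0.016), Fos (0.14) and Fosl1 (0.26) in B cells. At 5 kb they were Fosb in lung (-0.046) and Fos in B cells (0.17), at 50 kb Batf in kidney (0.17), and after division Jun (0.069), Fosl2 (0.47), Fos (0.58) and Fosl1 (0.53) in B cells. The hybrid term compares tissues within each hybrid, and the fit without it is given above. Beyond that, no pairing of single samples was possible. The replicate numbers of samples were given in accession order, and there is 1 hotspot set per hybrid and tissue.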
